A study of Mus musculus with 22 samples.

Results

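The comparison is of the effect of the brominated flame retardant tetrabromobisphenol A (TBBPA) on mouse embryoid bodies at day 28 with its effect at day 12. The comparison takes 8 of the 22 RNA-seq libraries of the series, all of embryoid bodies grown from J1, a line of mouse embryonic stem (ES) cells. At each of these days there was 1 library with 10 nM TBBPA and 1 with 100 nM TBBPA, and there were 2 libraries with 0.1% dimethyl sulfoxide (DMSO), the vehicle. The days were read from the sample titles, and no label says that the 2 libraries of a group are separate cultures. The p-values therefore reflect the spread within pairs of libraries. The DMSO and ES pairs may be technical repeats, and the TBBPA pairs differ in dose.

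In embryoid bodies, clumps of ES cells give rise to tissues of all germ layers without the order of an embryo. Their surface and cysts carry visceral endoderm, a tissue that uses the factors Hnf4a, Gata4 and Foxa3 and secretes liver-type plasma proteins such as transthyretin. In the neural part, proneural factors such as Neurog2 commit progenitors to become neurons, while Notch signalling holds other progenitors back.

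For each gene the effect of TBBPA is the log2 ratio of both TBBPA libraries over both DMSO libraries of the day. The difference between the days is the effect at day 28 minus that at day 12, so a positive difference means a higher or less negative effect at day 28. A gene passed when its adjusted p was under 0.05 in edgeR's quasi-likelihood test over 16383 genes. Among genes that passed the difference, an effect reversed when it passed at both days with opposite signs. It faded when it passed at day 12 and not at day 28, and it appeared late when it passed at day 28 and not at day 12. A day that was not passed does not show that there was no effect. Levels are in CPM, counts scaled to a common library size after TMM normalization, and in each pair of TBBPA values the 10 nM library is given first.

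In the 8 libraries the total was 18158583 to 18839517 expected counts. Between libraries of a DMSO pair the mean chi-square per gene was 1.7 at day 28 and 2.1 at day 12, where 1 is counting noise. Between the TBBPA doses it was 7.95 at day 28 and 3.38 at day 12, and between TBBPA and DMSO libraries 12.4 to 15.9 at day 28 and 17.6 to 21.1 at day 12. The labels give the cell type as mESC, but the summed level of 25 pluripotency genes was 1168 to 1313 CPM at day 28 and 1717 to 2209 CPM at day 12, below the 10710 and 11420 CPM of untreated ES cells. No tested member of the 45 gene lists was at 0 in all 8 libraries. The tissue was measured in bulk, so fewer cells of a type and less RNA per cell cannot be told apart.

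The effect of TBBPA differed between day 28 and day 12 for 1800 genes, 11% of those tested. It was more positive at day 28 for 908 genes (5.54%) and more negative for 892 (5.44%). With TBBPA, 11.9% of all genes passed as higher and 9.19% as lower at day 12, and 3.65% and 3.44% at day 28. The counts of list members given below are to be read against these shares. The difference was at least 2-fold for 320 of the 1800, and the smallest one that passed was 0.23 on the log2 scale. In 208 genes the effect reversed: 158 were lower with TBBPA at day 12 and higher at day 28, and 50 were higher at day 12 and lower at day 28. In 1153 genes it faded, of which 637 had been higher and 516 lower with TBBPA at day 12. In 245 genes it appeared late, 137 of them higher and 108 lower at day 28. Of the other genes, 15 passed at both days with the same sign and 179 passed at neither day. With DESeq2 in place of edgeR the split of the 1747 genes was 1070 more positive and 677 more negative, and faded genes were 471 higher and 616 lower at day 12. With edgeR kept and only the scaling taken from DESeq2, 1067 were more positive and 771 more negative. Faded genes were then 548 higher and 634 lower at day 12. When scaled by library size alone, the genes that appeared late were 98 higher and 125 lower.

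These counts changed with the libraries in the fit. Summing each DMSO pair removes its spread and also leaves 6 residual degrees of freedom in place of 11. Which of these lowered the counts was not tested. Summing keeps the same reads, so the log2 differences hardly move (Pga5 2.12 against 2.13) and a kept sign is no separate support. With each DMSO pair summed to 1 library, 172 genes passed the difference, all of them among the 1800, and all 1800 kept their sign. Pga5 was then the gene whose effect still reversed, 142 effects faded, and Cited1, a transcriptional coactivator partner, and Pth1r, the parathyroid hormone receptor, appeared late. The count of differences was 1056 to 1151 without any 1 of the 4 DMSO libraries of both days or the day 12 100 nM library. Reversals numbered 57 to 135 without any 1 library other than the 10 nM library of day 28, faded effects 600 to 689 without either day 12 DMSO library or the day 12 100 nM library, and late effects 53 to 89 without either day 28 DMSO library or the day 28 100 nM library.

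**Figure D1:**
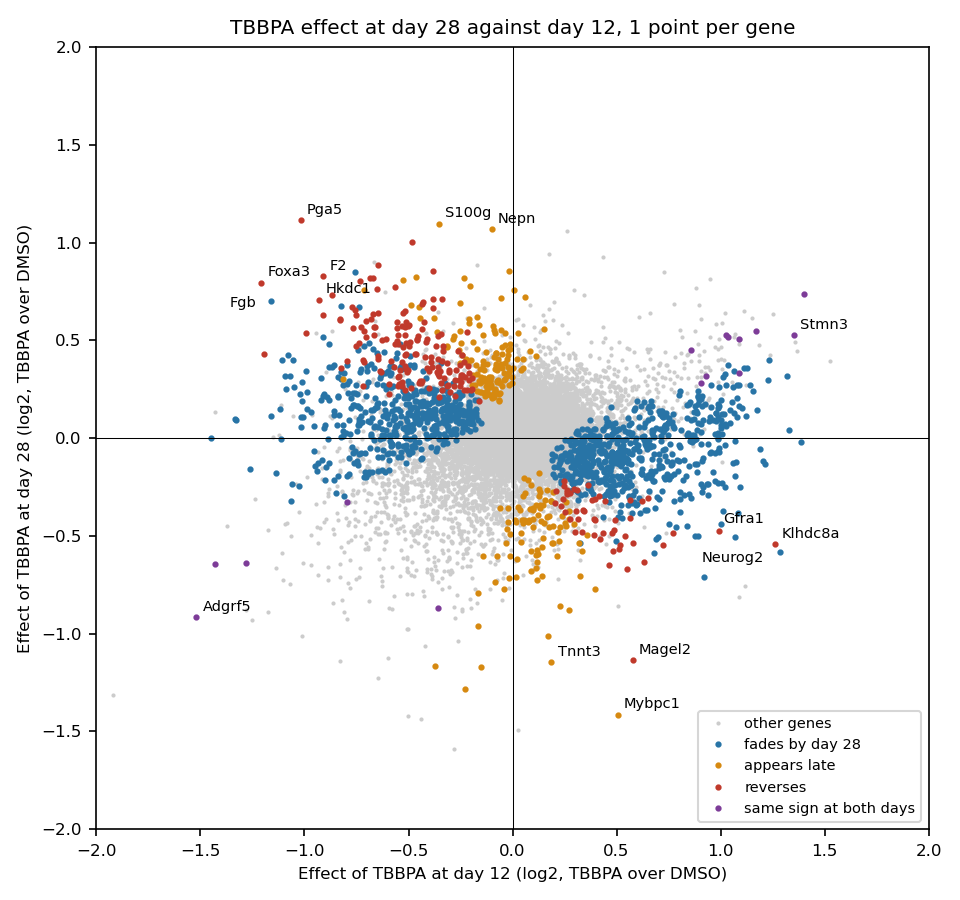
Effect of TBBPA at day 28 (vertical axis) against its effect at day 12 (horizontal axis), both as log2 of TBBPA over DMSO, for genes whose log2 CPM averaged 2 or more over the 8 libraries; each point is 1 gene, coloured by class, and Krt4 and S100a14, which did not pass, lie outside the axes. The upper left part holds reversals such as Pga5 (1.12 at day 28, -1.02 at day 12), and the faded effects lie along the horizontal axis on both sides.

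The genes of the largest reversals are shown with the 300 bases around their transcription start, 250 before and 50 after it, because they carry the change of direction between the days. They are the 3 genes with the largest reversal in each direction that have an entry in RefSeq (GRCm38.p6), written 5′ to 3′ on the strand of the gene. Capitals mark matches, on either strand, to any of 5 short motifs. The core bound by Foxa factors was searched for as TGTTTAC. One side of the site of HNF1 factors was searched for as GTTAAT, and one side of the site of many nuclear receptors as AGGTCA. An E-box of the kind that proneural factors bind was searched for as CAGCTG, and the TATA box of core promoters as TATAAA. No match overlapped another.
Foxa3, chr7:19023490-19023789, minus strand: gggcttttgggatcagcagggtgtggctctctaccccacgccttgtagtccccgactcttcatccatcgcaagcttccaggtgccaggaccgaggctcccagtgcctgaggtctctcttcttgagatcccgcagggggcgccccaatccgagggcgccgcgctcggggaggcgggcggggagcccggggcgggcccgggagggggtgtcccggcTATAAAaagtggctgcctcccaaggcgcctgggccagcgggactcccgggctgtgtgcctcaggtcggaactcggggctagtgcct
F2, chr2:91636408-91636707, minus strand: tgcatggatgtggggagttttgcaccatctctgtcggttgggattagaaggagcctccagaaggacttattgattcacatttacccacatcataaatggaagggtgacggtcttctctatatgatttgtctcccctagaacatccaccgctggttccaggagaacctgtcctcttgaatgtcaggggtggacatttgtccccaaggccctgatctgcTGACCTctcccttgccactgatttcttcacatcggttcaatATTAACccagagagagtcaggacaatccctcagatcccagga
Hkdc1, chr10:62422408-62422707, minus strand: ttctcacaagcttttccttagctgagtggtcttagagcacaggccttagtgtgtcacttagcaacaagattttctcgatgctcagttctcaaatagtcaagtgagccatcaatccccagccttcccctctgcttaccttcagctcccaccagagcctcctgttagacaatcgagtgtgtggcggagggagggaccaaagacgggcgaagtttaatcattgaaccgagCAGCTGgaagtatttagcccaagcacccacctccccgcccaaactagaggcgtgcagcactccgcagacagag
Klhdc8a, chr1:132298376-132298675, plus strand: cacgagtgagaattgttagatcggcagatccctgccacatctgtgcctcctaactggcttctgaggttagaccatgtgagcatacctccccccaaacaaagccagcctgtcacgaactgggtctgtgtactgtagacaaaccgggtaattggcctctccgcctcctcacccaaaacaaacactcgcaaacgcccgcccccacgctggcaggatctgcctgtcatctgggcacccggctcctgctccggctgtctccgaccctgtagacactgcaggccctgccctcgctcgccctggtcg
Magel2, chr7:62376729-62377028, plus strand: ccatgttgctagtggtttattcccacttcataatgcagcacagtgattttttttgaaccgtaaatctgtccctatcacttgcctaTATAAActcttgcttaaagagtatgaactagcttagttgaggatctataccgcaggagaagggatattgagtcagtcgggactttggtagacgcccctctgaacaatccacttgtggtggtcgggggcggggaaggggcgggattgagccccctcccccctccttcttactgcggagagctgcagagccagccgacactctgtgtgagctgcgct
Gfra1, chr19:58455349-58455648, minus strand: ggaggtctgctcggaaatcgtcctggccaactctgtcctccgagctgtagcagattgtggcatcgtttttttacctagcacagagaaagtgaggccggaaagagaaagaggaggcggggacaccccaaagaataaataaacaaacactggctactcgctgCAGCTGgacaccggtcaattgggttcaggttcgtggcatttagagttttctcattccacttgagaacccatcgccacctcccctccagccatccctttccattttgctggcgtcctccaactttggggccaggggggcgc
The F2 window held an HNF1 half-site and a nuclear receptor half-site, both on the strand opposite to the gene. Those of Foxa3 and Magel2 held a TATA box, those of Hkdc1 and Gfra1 an E-box, and that of Klhdc8a none of the letters searched. Among the 27025 RefSeq promoters of this length, the Foxa core was in 3.55%, the HNF1 half-site in 7.2%, the nuclear receptor half-site in 16%, the E-box in 16.1% and the TATA box in 14.2%. Over the 12841 promoters found for the genes tested, the shares were 2.56, 4.38, 12.7, 15.8 and 8.08% in the same order. Over the 125 found for the 158 genes that turned higher at day 28 they were 4.0, 3.2, 8.0, 19.2 and 10.4%, some above and some below those of the genes tested. A match is a description of the letters and not a site of binding.

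The largest reversals towards higher levels at day 28 were those of Pga5, Foxa3, F2, Hkdc1 and Dmkn. Pga5, a pepsinogen of the stomach, stood at 137 and 134 CPM with TBBPA at day 28, against 62.0 and 63.1 CPM with DMSO. At day 12 it stood at 5.19 and 6.25 CPM with TBBPA, against 10.9 and 12.2 CPM with DMSO. Both TBBPA libraries were thus above both DMSO libraries at day 28 and below them at day 12, and the difference was 2.13 ± 0.14 (SE) on the log2 scale, with an adjusted p of 1.11e-08 by edgeR. Foxa3, a forkhead factor of gut and liver, was at 6.97 and 9.35 CPM with TBBPA and 5.05 and 4.35 CPM with DMSO at day 28, and at 2.91 and 2.76 CPM with TBBPA and 7.18 and 5.93 CPM with DMSO at day 12. Its difference was 2.0 ± 0.28 (adjusted p = 8.74e-05). Here the DMSO level was lower at day 28 than at day 12, and the TBBPA level was higher. F2, prothrombin, a clotting factor made by the liver, was at 22.7 and 29.9 CPM with TBBPA and 14.4 and 15.1 CPM with DMSO at day 28. It was at 10.1 and 7.81 CPM with TBBPA and 18.5 and 15.2 CPM with DMSO at day 12, a difference of 1.74 ± 0.22 (adjusted p = 2.81e-05).

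Hkdc1, a hexokinase-like enzyme, reversed by 1.64 ± 0.17 (adjusted p = 2.76e-06), with an effect of 0.71 at day 28 and -0.93 at day 12. Dmkn, the epidermal protein dermokine, reversed by 1.63 ± 0.27 (adjusted p = 0.000419). At day 12 it was at only 0.986 and 0.521 CPM with TBBPA and 1.83 and 1.64 CPM with DMSO, against 83.6 and 84.2 CPM with TBBPA and 62.0 and 62.3 CPM with DMSO at day 28. All 5 differences also passed with the DMSO pairs summed and without any 1 of the 8 libraries.

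The reversals towards lower levels at day 28 were fewer and their leading genes have other roles. Klhdc8a, a kelch-domain protein, was at 10.2 and 7.30 CPM with TBBPA and 12.8 and 12.7 CPM with DMSO at day 28, and at 27.7 and 27.1 CPM with TBBPA and 11.7 and 11.1 CPM with DMSO at day 12. The difference was -1.80 ± 0.20 (adjusted p = 5e-06), and the DMSO level was nearly the same at both days. Magel2, an imprinted gene of the MAGE family, had 1.48 and 1.38 CPM with TBBPA and 3.25 and 3.03 CPM with DMSO at day 28. At day 12 it had 10.8 and 10.8 CPM with TBBPA and 6.57 and 7.93 CPM with DMSO, a difference of -1.71 ± 0.31 (adjusted p = 0.000729). Gfra1, a co-receptor for the growth factor GDNF, had 31.4 and 23.1 CPM with TBBPA and 36.7 and 39.0 CPM with DMSO at day 28, and 43.1 and 42.3 CPM with TBBPA and 21.9 and 21.0 CPM with DMSO at day 12. Its difference was -1.47 ± 0.20 (adjusted p = 8.94e-05). Pxylp1, a phosphatase of proteoglycan synthesis, reversed by -1.27 ± 0.21, and Heyl, a target of Notch signalling, by -1.26 ± 0.26 (adjusted p = 0.000402 and 0.00264). With the DMSO pairs summed, Klhdc8a and Magel2 still passed the difference, and Gfra1, Pxylp1 and Heyl did not.

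**Figure D2:**
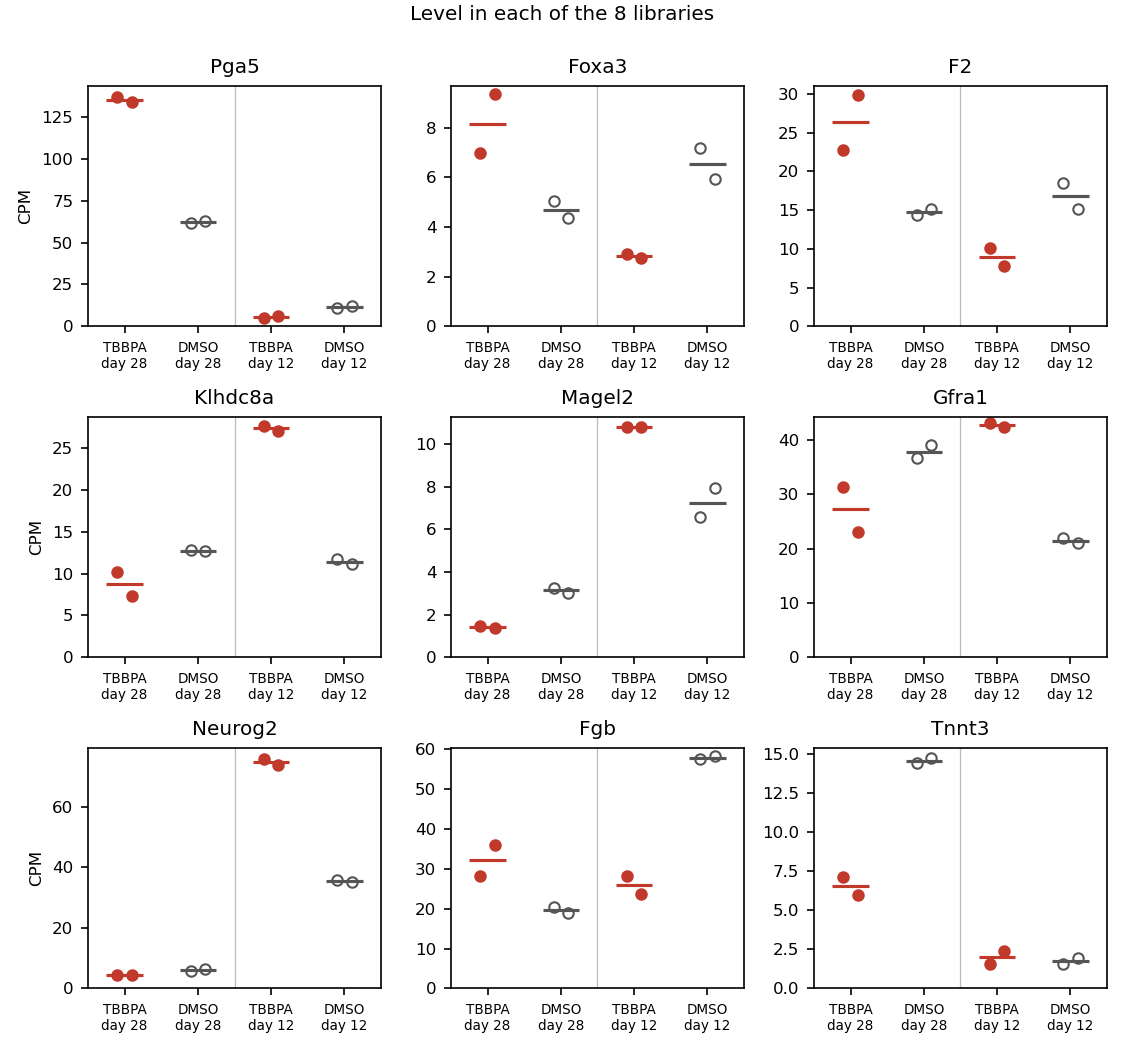
Level in CPM (vertical axes, from 0) of 9 genes in each of the 8 libraries, with day 28 left of the grey line and day 12 right of it. Filled red points are the 10 nM (left) and 100 nM (right) TBBPA libraries, open grey points the DMSO libraries and bars the mean of each pair; in the top row TBBPA is above DMSO at day 28 and below it at day 12, as for Pga5 at 137 and 134 against 62.0 and 63.1 CPM and at 5.19 and 6.25 against 10.9 and 12.2 CPM.

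The effects at days 4, 9 and 18 were not used to form the classes, but the libraries of these days entered the fit that gave the p-values. Among the 158 genes that turned higher, the median effect was -0.085 at day 4, -0.18 at day 9, -0.50 at day 12, 0.085 at day 18 and 0.43 at day 28. At day 18, 108 of them lay above 0, 9 passed as higher and 1 as lower, against 5.96% of all genes called higher and 4.56% called lower at that day. At day 9, 17 passed as lower and 1 as higher, against 0.964% and 1.37% of all genes. The 50 genes that turned lower had medians of 0.003, 0.23, 0.40, 0.034 and -0.41 at the same days, and 10 of them were already called higher at day 9. The effects of both groups were thus near 0 at day 18, between their opposite values at days 12 and 28.

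Part of the faded effects passed at days 9 and 18 as well, where 1.37% and 5.96% of all genes were called higher and 0.964% and 4.56% lower. Of the 637 genes higher at day 12, 121 passed as higher and 1 as lower at day 9, and 305 as higher and 0 as lower at day 18 by edgeR. Their median effect was 0.038 at day 4, 0.20 at day 9, 0.56 at day 12, 0.30 at day 18 and -0.087 at day 28. In 289 of these 637 genes both TBBPA libraries lay above both DMSO libraries at day 12 and below both at day 28. The TBBPA pair changed sides between these days, in either direction, for 2513 of all 16383 genes. The 516 genes that faded from lower levels held 301 such changes the other way. Of the 516 genes lower at day 12, 53 passed as lower at day 9, and 66 as lower and 5 as higher at day 18, where the median was -0.11. Of the 108 genes lower at day 28, 46 passed as lower and 3 as higher at day 18, and of the 137 higher ones 12 passed as higher at day 18.

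**Figure D3:**
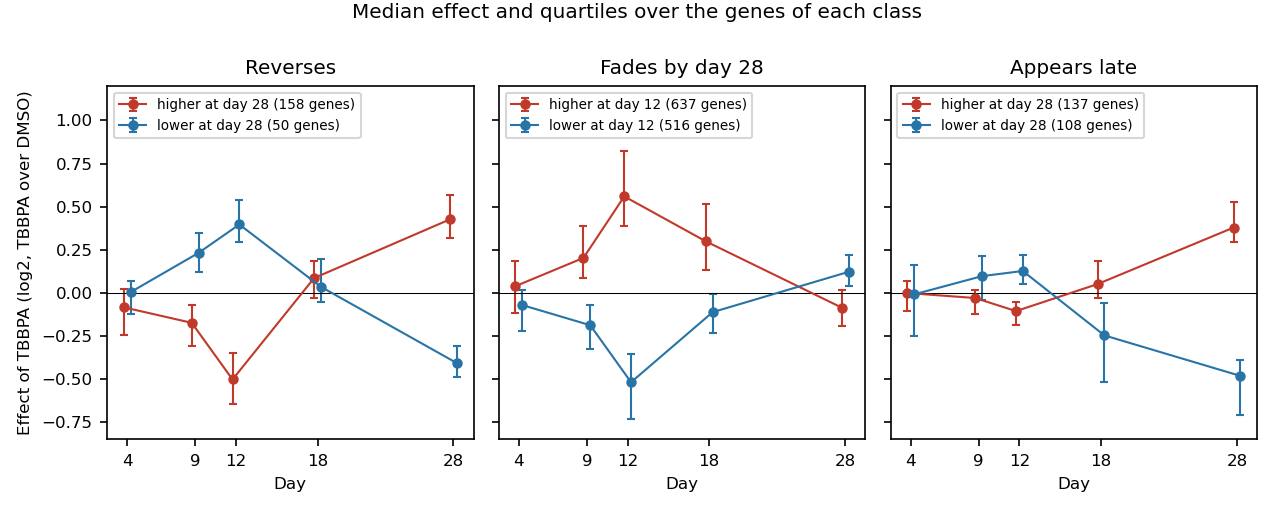
Median effect of TBBPA (points, log2 of TBBPA over DMSO) and its quartiles over genes (bars) at days 4 to 28, for the genes whose effect reversed, faded or appeared late. The effects at days 12 and 28 formed the classes, from a fit over all 22 libraries. At day 18 the medians of the reversing genes were 0.085 and 0.034, close to 0.

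Endoderm genes were the list with the most positive median difference, 1.19 over 18 members, against -0.029 over all genes. At day 28, 9 of the 18 rose and 0 fell (3.65% and 3.44% of all genes), with a median effect of 0.57. At day 12, 2 rose and 12 fell (11.9% and 9.19% of all genes), with a median of -0.63. The difference passed as positive for 13 members and as negative for 1; 7 of the 13 reversed, 4 faded, 1 appeared late and 1 passed at neither day. Hnf4a, a nuclear receptor of visceral endoderm and liver, had 37.7 and 42.6 CPM with TBBPA and 24.3 and 24.0 CPM with DMSO at day 28, and 23.1 and 23.1 CPM with TBBPA and 41.9 and 42.5 CPM with DMSO at day 12. Its difference was 1.60 ± 0.20 (adjusted p = 4.1e-05). Gata4, a zinc-finger factor of endoderm and heart, had 231 and 211 CPM with TBBPA and 141 and 142 CPM with DMSO at day 28, and 43.9 and 49.5 CPM with TBBPA and 75.1 and 70.9 CPM with DMSO at day 12, a difference of 1.29 ± 0.16 (adjusted p = 3.63e-05). Dab2, an endocytic adaptor of visceral endoderm, reversed by 1.18 ± 0.10 (adjusted p = 1.12e-07). Sox17, a factor of definitive endoderm and endothelium, appeared late: it had 135 and 132 CPM with TBBPA and 85.1 and 89.0 CPM with DMSO at day 28, against an effect of -0.17 ± 0.09 at day 12 that did not pass. With the DMSO pairs summed, some of the 18 passed the difference, all positive. In that fit the rise at day 28 did not pass for any of them.

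The endoderm list summed to 4298 and 3248 CPM with TBBPA and 2730 and 2847 CPM with DMSO at day 28, and to 1249 and 1195 CPM with TBBPA and 1732 and 1733 CPM with DMSO at day 12. TBBPA was above both DMSO libraries at the later day and below both at the earlier one. The 10 nM library of day 28 was the higher of the TBBPA pair.

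Secreted proteins of liver and yolk sac also had a positive median difference. Of 22 members, 14 fell and 1 rose at day 12 (9.19% and 11.9% of all genes). At day 28, 4 rose and 0 fell (3.65% and 3.44% of all genes). The difference passed as positive for 9 and as negative for 1, with a median of 1.02; 4 reversed and 5 faded among the positive ones. Fgb, a fibrinogen chain, had 28.3 and 36.1 CPM with TBBPA and 20.5 and 19 CPM with DMSO at day 28, an effect of 0.70 ± 0.20 that missed the threshold (adjusted p = 0.0504). At day 12 it had 28.3 and 23.6 CPM with TBBPA and 57.5 and 58.4 CPM with DMSO, and the difference was 1.86 ± 0.28 (adjusted p = 0.000492). Rbp4, the plasma carrier of retinol, had 90.1 and 98.9 CPM with TBBPA and 62.3 and 62.0 CPM with DMSO at day 28. It had 146 and 138 CPM with TBBPA and 250 and 254 CPM with DMSO at day 12, and reversed by 1.43 ± 0.20 (adjusted p = 0.000322). Ttr, transthyretin, differed by 1.5 ± 0.30 and Apom, an apolipoprotein, by 1.60 ± 0.36 (adjusted p = 0.00662 and 0.00533). Mttp, which loads lipid onto apolipoprotein B, differed by 0.81 ± 0.11 (adjusted p = 7.51e-05). With the DMSO pairs summed, F2, Fgb, Mttp and Rbp4 passed the difference, but their effects at day 28 did not pass. At day 18 the summed level of the list was 1405 CPM with 10 nM and 893 CPM with 100 nM TBBPA, against 978 and 979 CPM with DMSO, so the doses lay on opposite sides of DMSO there.

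Gut and stomach genes passed the difference as positive in 7 of 17 cases, of which 5 faded and 2 appeared late. Gkn1, gastrokine of the stomach lining, had 61.1 and 50.4 CPM with TBBPA and 32.4 and 33.6 CPM with DMSO at day 28, and 1.14 and 0.937 CPM with TBBPA and 1.78 and 1.64 CPM with DMSO at day 12. The difference was 1.47 ± 0.29 (adjusted p = 0.00247). Vil1, villin of the brush border, was lower at day 12 (-1.09 ± 0.15) and at 0.25 ± 0.19 at day 28. None of the 17 passed the difference with the DMSO pairs summed.

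Pluripotency genes had a median effect of 0.047 at day 28 and -0.61 at day 12. At day 12, 16 of 25 fell and 3 rose (9.19% and 11.9% of all genes). At day 28, 3 rose and 0 fell (3.65% and 3.44% of all genes). The difference passed as positive for 12 and as negative for 2, and 9 of the 12 were falls that faded. Fgf4, a growth factor of the inner cell mass, had 15.3 and 15.9 CPM with TBBPA and 13.9 and 15 CPM with DMSO at day 28, and 18.9 and 19 CPM with TBBPA and 37.1 and 39.2 CPM with DMSO at day 12. Its difference was 1.11 ± 0.18 (adjusted p = 0.000303). Tfcp2l1, a factor of the naive state, differed by 0.88 ± 0.12, and Sall4, a zinc-finger factor of ES cells that is also made in visceral endoderm, reversed by 0.76 ± 0.11. Pou5f1, the factor Oct4, had 80.8 and 103 CPM with TBBPA and 88.3 and 82.7 CPM with DMSO at day 28, where the pairs overlapped. It fell at day 12 (136 and 118 CPM against 191 and 184 CPM), and the difference of 0.66 ± 0.19 (adjusted p = 0.0348) passed in 2 of the 8 fits that left out a library. Fgf4, Sall4 and Tfcp2l1 passed with the DMSO pairs summed.

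**Figure D4:**
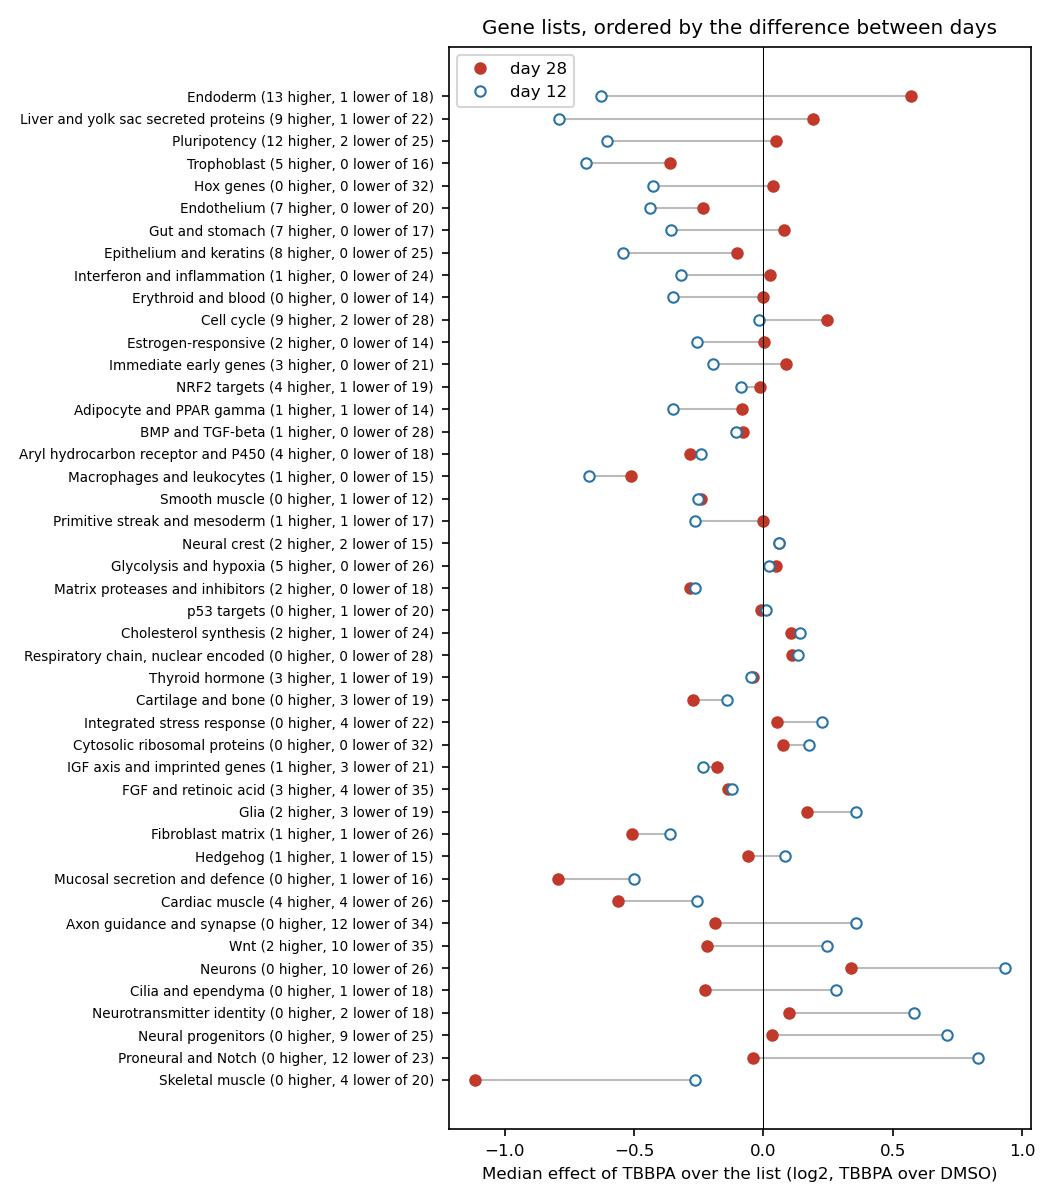
Median effect of TBBPA (log2 of TBBPA over DMSO) over the tested members of each of 45 gene lists at day 28 (filled red) and day 12 (open blue), ordered from the top by the median difference; beside each name are the members that passed the difference as higher or lower, of those tested. The endoderm median was 0.57 at day 28 and -0.63 at day 12, and the skeletal muscle median -1.11 at day 28 and -0.27 at day 12.

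Most neuron genes were higher with TBBPA at day 12, and fewer of them passed at day 28. Of 26 neuron genes, 20 rose and 0 fell at day 12 (11.9% and 9.19% of all genes), with a median effect of 0.93. At day 28, 6 rose and 0 fell (3.65% and 3.44% of all genes), with a median of 0.34. The difference passed as negative for 10 and as positive for 0; 8 of these faded and 2 kept their sign at a smaller size. The summed level of the list was 510 and 475 CPM with TBBPA and 438 and 437 CPM with DMSO at day 28, and 1368 and 1457 CPM with TBBPA and 746 and 764 CPM with DMSO at day 12. TBBPA thus stayed above both DMSO libraries, by less at the later day. Map2, a microtubule protein of dendrites, had 60.9 and 53.9 CPM with TBBPA and 58.8 and 54.7 CPM with DMSO at day 28. It had 150 and 164 CPM with TBBPA and 82.1 and 89.5 CPM with DMSO at day 12, a difference of -0.85 ± 0.12 (adjusted p = 6.84e-05), the one neuron gene that passed with the DMSO pairs summed. Tubb3, neuronal tubulin, differed by -0.75 ± 0.18 and Dcx, doublecortin of migrating neurons, by -0.79 ± 0.19 (adjusted p = 0.0093 and 0.0096), and passed in 6 and 5 of the 8 fits that left out a library.

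Proneural and Notch genes had the second most negative median difference, -0.74 over 23 members, after skeletal muscle. At day 12, 14 rose and 0 fell (11.9% and 9.19% of all genes). At day 28, 0 rose and 5 fell (3.65% and 3.44% of all genes). The difference passed as negative for 12, of which 7 faded, 3 appeared late and 2 reversed. Neurog2, the proneural factor, had 4.28 and 4.39 CPM with TBBPA and 5.80 and 6.52 CPM with DMSO at day 28, an effect of -0.51 ± 0.16 just outside the threshold (adjusted p = 0.0505). It had 75.9 and 73.7 CPM with TBBPA and 35.8 and 35.3 CPM with DMSO at day 12, and the difference was -1.58 ± 0.18 (adjusted p = 9.16e-06). Notch1, a Notch receptor, had 144 and 137 CPM with TBBPA and 161 and 170.0 CPM with DMSO at day 28, and 183 and 188 CPM with TBBPA and 143 and 145 CPM with DMSO at day 12. It reversed by -0.60 ± 0.09 (adjusted p = 0.00011). Lfng, which modifies Notch receptors, differed by -0.89 ± 0.16 (adjusted p = 0.000847). The list summed to 660 and 640 CPM with TBBPA and 766 and 782 CPM with DMSO at day 28, and to 1360 and 1345 CPM with TBBPA and 986 and 980 CPM with DMSO at day 12, so the groups changed sides. Neurog2 and Notch1 passed with the DMSO pairs summed.

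Among neural progenitor genes, 19 of 25 rose at day 12 and 1 fell (11.9% and 9.19% of all genes). At day 28, 1 rose and 0 fell (3.65% and 3.44% of all genes). The difference passed for 9, all negative. Pou3f2, a POU factor of neural precursors, had 20.4 and 18.1 CPM with TBBPA and 17.7 and 17.1 CPM with DMSO at day 28, and 109 and 124 CPM with TBBPA and 53.8 and 59.1 CPM with DMSO at day 12. Its difference was -0.90 ± 0.18 (adjusted p = 0.00217). The related Pou3f3 differed by -0.88 ± 0.14, and Nes, the progenitor filament nestin, by -0.71 ± 0.11. Axon guidance and synapse genes passed the difference as negative in 12 of 34 cases and as positive in 0; 8 faded, 3 appeared late and 1 reversed. Slit1, a repellent of growing axons, differed by -1.19 ± 0.22, Cntn2, an axonal adhesion protein, by -1.03 ± 0.18 and Epha7, an ephrin receptor, by -0.65 ± 0.11. Of the neurotransmitter genes 2 of 18 passed, the same share as the 11% of all genes: Th, which makes dopa, at -1.80 ± 0.53, and Slc17a7, a vesicular glutamate transporter, at -1.31 ± 0.41. They passed in 2 and 1 of the 8 fits that left out a library and with neither dose alone. Nes and Cntn2 passed with the DMSO pairs summed.

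Among effects that faded from higher levels at day 12, those of Neurog2 and 4 more genes had the largest differences. This holds for genes whose log2 CPM averaged 2 or more over the 8 libraries and whose pairs did not overlap at day 12. Their effects at day 28 lay below 0 but did not pass. Upk3a, a uroplakin of the bladder lining, differed by -1.86 ± 0.36 and had an effect of -0.58 ± 0.19 at day 28 (adjusted p = 0.069). At day 12 it was at only 2.44 and 1.93 CPM with TBBPA and 0.967 and 0.818 CPM with DMSO. Lzts1, a cytoskeletal protein of cells that leave the neural epithelium, differed by -1.63 ± 0.34, with 0.916 and 0.766 CPM with TBBPA and 1.60 and 1.16 CPM with DMSO at day 28 and 21.4 and 22.8 CPM with TBBPA and 11.9 and 11.5 CPM with DMSO at day 12. Ppp1r1b, the phosphatase inhibitor DARPP-32, differed by -1.46 ± 0.35 and Ebf1, an early B-cell factor also made in neural tissue, by -1.44 ± 0.27. Among those that faded from lower levels, Gcnt4, a sugar transferase, differed by 1.51 ± 0.32 and Plac8, first found in placenta, by 1.5 ± 0.21.

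Wnt genes passed the difference as negative in 10 of 35 cases and as positive in 2, with a median of -0.46. Sfrp2, a secreted Wnt modulator, had 18.8 and 24.0 CPM with TBBPA and 28.1 and 31.2 CPM with DMSO at day 28, and 55.2 and 62.1 CPM with TBBPA and 41.6 and 42.0 CPM with DMSO at day 12. It reversed by -0.96 ± 0.14 (adjusted p = 0.000111). Nkd1, a feedback inhibitor of Wnt signalling, reversed by -0.77 ± 0.12, and the effect on Rspo2, a Wnt agonist, faded (-0.78 ± 0.15). Sfrp2 and Nkd1 passed with the DMSO pairs summed. In the hedgehog list the ligand Ihh, which is made in visceral endoderm, had 41.1 and 43.7 CPM with TBBPA and 20.2 and 22.1 CPM with DMSO at day 28, and 12.2 and 10.0 CPM with TBBPA and 15.8 and 15.2 CPM with DMSO at day 12. It reversed upwards by 1.48 ± 0.18 (adjusted p = 1.54e-05). Boc, a hedgehog co-receptor, reversed the other way by -0.82 ± 0.15 (adjusted p = 0.000799). In the retinoic acid list Cyp26a1, which breaks retinoic acid down, reversed by 1.05 ± 0.15, while the effects on the binding protein Crabp2 (-0.96 ± 0.16) and the growth factor Fgf15 (-1.23 ± 0.23) faded.

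**Figure D5:**
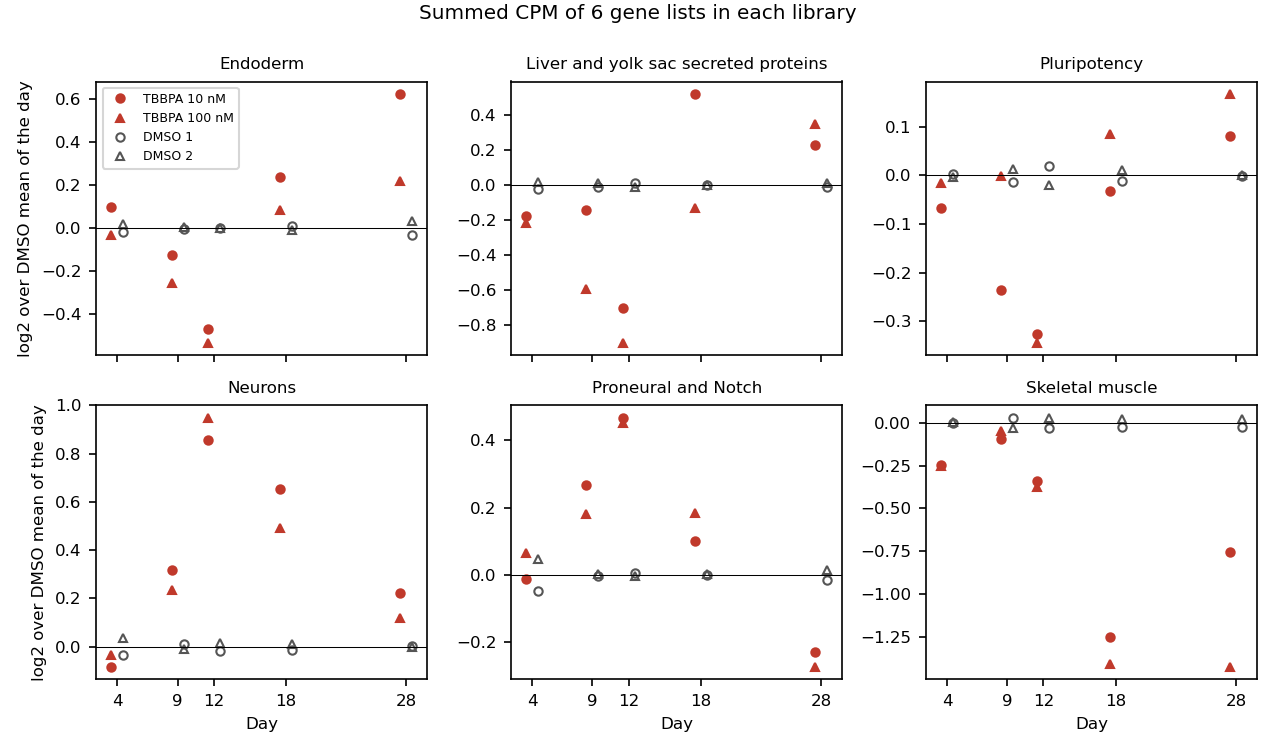
Summed CPM of 6 gene lists in each library, as log2 over the DMSO mean of the same day (vertical axes) at days 4 to 28 (horizontal axes); filled red symbols are TBBPA (circle 10 nM, triangle 100 nM) and open grey symbols the DMSO libraries. Endoderm and liver sums lie above 0 at day 28 and below it at day 12, proneural and Notch sums the other way, and skeletal muscle sums are lowest at days 18 and 28.

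Skeletal muscle genes had the most negative median difference, -0.90, and Tnnt3 and Mybpc1 were among the leading late falls. Of 20 skeletal muscle genes, 17 fell and 0 rose at day 28 (3.44% and 3.65% of all genes), with a median effect of -1.11. At day 12, 3 fell and 1 rose (9.19% and 11.9% of all genes), with a median of -0.27. The difference itself passed for 4, all negative and all late. Tnnt3, troponin T of fast muscle, had 7.13 and 5.98 CPM with TBBPA and 14.4 and 14.7 CPM with DMSO at day 28, and 1.56 and 2.39 CPM with TBBPA and 1.53 and 1.94 CPM with DMSO at day 12, where the pairs overlapped. Its difference was -1.33 ± 0.32 (adjusted p = 0.00757). Chrna1, the acetylcholine receptor subunit of muscle, differed by -1.71 ± 0.36, and Actn2, an actinin of the Z-disc, by -0.79 ± 0.21. The difference of Tnnt3 passed in 6 and that of Actn2 in 4 of the 8 fits that left out a library. Mybpc1, a myosin-binding protein of slow muscle, had 4.17 and 2.91 CPM with TBBPA and 9.55 and 9.35 CPM with DMSO at day 28, and 4.15 and 3.02 CPM with TBBPA and 2.39 and 2.66 CPM with DMSO at day 12. Its difference of -1.92 ± 0.34 was the largest of the late falls named here (adjusted p = 0.000728). At day 18 Tnnt3 already stood at -1.89 (adjusted p = 1.51e-05) and Mybpc1 at -1.12 (adjusted p = 0.00267). The list summed to 245 and 154 CPM with TBBPA and 408 and 421 CPM with DMSO at day 28, and to 135 and 132 CPM with TBBPA and 168 and 174 CPM with DMSO at day 12. None of the 20 passed the difference with the DMSO pairs summed, where 0 of them passed at day 28 either.

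Further late falls were Tbx1, a T-box factor of pharyngeal mesoderm (-1.18 ± 0.28), Emilin2, a matrix glycoprotein (-1.17 ± 0.24), and Fndc3c1, a fibronectin-domain protein (-1.15 ± 0.27). Cardiac genes split: 4 of 26 passed the difference as positive and 4 as negative, against 5.54% and 5.44% of all genes. Myl3, a myosin light chain, had 84.5 and 84.4 CPM with TBBPA and 52.6 and 50.6 CPM with DMSO at day 28, and 8.98 and 9.01 CPM with TBBPA and 11.8 and 11.7 CPM with DMSO at day 12. It reversed by 1.09 ± 0.16 (adjusted p = 0.000102). Cacna1c, a calcium channel subunit, appeared late as lower, with a difference of -0.91 ± 0.19 (adjusted p = 0.00279). Mylk, a myosin kinase of smooth muscle, did so too (-0.70 ± 0.18). Fibroblast matrix genes fell in 16 of 26 cases at day 28, in 22 at day 18 and in 8 at day 12. The shares of all genes that fell at these days were 3.44%, 4.56% and 9.19%. The difference passed for 2 of the 26. Sparc, a secreted matrix protein that parietal endoderm also makes, reversed upwards by 0.87 ± 0.11, and Fbln2, a fibulin, differed by -0.59 ± 0.18. The difference of Fbln2 passed in 0 of the 8 edgeR fits that left out a library, those of Mylk in 4 and of Tbx1 in 6, and that of Fndc3c1 in 7.

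The leading late rises were those of Gkn1, S100g, Aqp8, Aifm3 and Nepn. They lead among genes whose log2 CPM averaged 2 or more over the 8 libraries and whose pairs did not overlap at day 28. S100g, the calcium-binding protein calbindin-D9k, had 35.3 and 59.6 CPM with TBBPA and 23.1 and 21.2 CPM with DMSO at day 28, and 19.6 and 18.3 CPM with TBBPA and 24.0 and 24.5 CPM with DMSO at day 12. Its difference was 1.45 ± 0.30 (adjusted p = 0.00546). The 100 nM library was the higher at day 28. Aqp8, a water channel, showed the opposite order of doses, with 77.4 and 38.2 CPM with TBBPA and 34.9 and 31.0 CPM with DMSO at day 28. Its difference of 1.33 ± 0.39 (adjusted p = 0.0386) passed in 1 of the 8 fits that left out a library. Aifm3, a flavoprotein of mitochondria, differed by 1.29 ± 0.23 and Nepn, a proteoglycan of the gut endoderm, by 1.17 ± 0.28 (adjusted p = 0.0007 and 0.00882), with Nepn passing in 6 of the 8 fits that left out a library.

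Cell cycle genes were higher with TBBPA mainly at day 28. Of 28 members, 16 rose and 1 fell at day 28 (3.65% and 3.44% of all genes). At day 12, 3 rose and 0 fell (11.9% and 9.19% of all genes). The difference passed as positive for 9 and as negative for 2, with 8 late rises among the positive ones. Ccnb1, cyclin B1 of mitosis, had 99.3 and 93.8 CPM with TBBPA and 78.8 and 79.1 CPM with DMSO at day 28, and 218 and 223 CPM with TBBPA and 236 and 245 CPM with DMSO at day 12. Its difference was 0.42 ± 0.08 (adjusted p = 0.0011). Plk1, a mitotic kinase, differed by 0.46 ± 0.09 and Ccnd2, cyclin D2, by -0.51 ± 0.11. None of the 28 passed with the DMSO pairs summed.

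Endothelial genes passed the difference as positive in 7 of 20 cases and as negative in 0, against 5.54% and 5.44% of all genes. Their median effect was below 0 at both days, -0.235 at day 28 and -0.44 at day 12. At day 28, 3 rose and 1 fell (3.65% and 3.44% of all genes). At day 12, 0 rose and 4 fell (11.9% and 9.19% of all genes). Flt1, a receptor for vascular endothelial growth factor, had 177 and 170.0 CPM with TBBPA and 114 and 126 CPM with DMSO at day 28, and 43.5 and 45.5 CPM with TBBPA and 53.9 and 58.8 CPM with DMSO at day 12. It reversed by 0.88 ± 0.11 (adjusted p = 3.86e-05) and passed with the DMSO pairs summed. Egfl7, a secreted vascular protein, appeared late (0.80 ± 0.14). Pecam1, an adhesion protein of endothelium, fell at day 12 (-0.80 ± 0.10), had an effect of -0.19 ± 0.12 at day 28 and differed by 0.60 ± 0.15, which passed in 5 of the 8 fits that left out a library. Epithelial genes passed as positive in 8 of 25 cases, 7 of them falls at day 12 that faded. Cdh1, the adhesion protein E-cadherin, had 311 and 355 CPM with TBBPA and 345 and 345 CPM with DMSO at day 28, where the pairs overlapped, and 217 and 212 CPM with TBBPA and 350.0 and 339 CPM with DMSO at day 12. Its difference was 0.63 ± 0.10 (adjusted p = 0.000209), with Krt8, a keratin of simple epithelia, at 0.80 ± 0.12 and Dsg2, a desmosomal cadherin, at 0.68 ± 0.09.

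Over all genes tested, the effect passed at both days with the same sign for 217 genes, of which 202 did not pass the difference. Of the 15 that did, 14 had the smaller effect at day 28, and Jph2, a junction protein of heart muscle, had the larger. Adgrf5, an adhesion receptor of endothelium and lung, had 5.80 and 6.18 CPM with TBBPA and 11.6 and 11 CPM with DMSO at day 28, and 8.77 and 7.45 CPM with TBBPA and 22.8 and 23.7 CPM with DMSO at day 12. Its effect was -0.92 ± 0.13 at day 28 and -1.52 ± 0.12 at day 12. Arhgef6 and Lgals3, galectin-3, were also lower at both days, with differences of 0.79 ± 0.15 and 0.64 ± 0.18. On the higher side, Stmn3 and Stmn4, microtubule regulators of neurons, differed by -0.82 ± 0.18 and -0.66 ± 0.20, and Fez1, an adaptor of axonal transport, by -0.75 ± 0.13. The differences of Adgrf5 and Stmn4 passed in 1 of the 8 fits that left out a library, and that of Lgals3 in 3.

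Each dose was 1 library at a day. The genes named for the largest effects were chosen from these same libraries, with both doses on 1 side of DMSO at each day passed. Passing with 1 dose alone thus follows in part from that choice. Of the 30 genes named for the largest reversed, faded or late effects, 26 passed the difference with the 10 nM libraries alone and 28 with the 100 nM libraries alone. The change between the days was tested for a difference between 100 nM and 10 nM, with the DMSO and ES pairs giving the spread, and edgeR called 1 of 16691 genes (1144 at an unadjusted p under 0.05). That gene was Sprr2a1, a small proline-rich protein of cornified epithelium (adjusted p = 0.0074), which at day 28 was at 0 CPM in the 10 nM library, 8.99 CPM in the 100 nM library and 10.8 and 10.1 CPM with DMSO. Its near-identical family members could share reads with it, so its level is uncertain. Among the reversals, F2 differed by 1.35 with 10 nM and 2.13 with 100 nM, and Pga5 by 2.29 and 1.99; neither pair passed the test between doses, which does not show that the doses act alike.

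Of 24 marker genes of single lineages and pathways, 7 passed the difference, against 11% of all genes. The 7 were Pou5f1, Sox17, Ttr, Tubb3, Dcx, Pecam1 and Fgf10, a growth factor of limb and lung mesenchyme (0.87 ± 0.20).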

How the data were processed

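RNA of embryoid bodies and ES cells of the mouse J1 line was extracted with Trizol and a column kit, per the labels' protocols. HISAT, Bowtie2 and the build GRCm38.p5 are named in the submitters' processing notes, and what counted the reads was not stated in the sources used here. The authors deposited expected counts and FPKM per gene, per the file headers. For all main results the expected counts, rounded to whole numbers, were used, and FPKM for alternatives.

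Genes with enough counts (edgeR's filterByExpr, minimum 10 per library and 15 in all) were scaled by TMM and fitted with edgeR 4.0.16 in R 4.3.3 over 22 libraries in 11 groups, with 11 residual degrees of freedom. P-values were Benjamini-Hochberg adjusted over 16383 genes and called under 0.05. Both doses entered as one TBBPA group, since a dose has 1 library a day. A standard error is the log2 value divided by the square root of F. Alternatives used DESeq2 1.42.0, limma 3.58.1 on log2 FPKM, other scalings and filters, each dose alone, summed DMSO pairs, a replicate block and each of the 8 libraries left out. The fit was tested on simulated data.

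The named genes are the 5 of largest difference in each class and direction whose log2 CPM averaged 2 or more over the 8 libraries and which had both TBBPA libraries on one side of both DMSO libraries at each day passed, 3 in each direction with the same sign at both days, up to 3 of smallest p in each list, and 24 markers. Genes outside this rule (Cited1 and Pth1r under the summed DMSO pairs, Jph2, Krt4, S100a14 and Sprr2a1) were named after their values were seen. The comparison, the lists and the rule were chosen with earlier results of these data known. Promoter sequences are from RefSeq on GRCm38.p6. The series labels name no batch.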

Additional observations from a re-analysis of the deposited data

Results flagged for a closer look

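The effect of TBBPA was tested for a difference between day 28 and day 12 itself, in the edgeR fit over all genes, and 1800 genes passed. Effects that reversed upwards were those of Pga5 (difference of 2.13 on the log2 scale), Foxa3 (2.0), F2 (1.74), Hkdc1 (1.64) and Dmkn (1.63). Effects that reversed downwards were those of Klhdc8a (-1.80), Magel2 (-1.71), Gfra1 (-1.47), Pxylp1 (-1.27) and Heyl (-1.26). Effects higher at day 12 that faded were those of Upk3a (-1.86), Lzts1 (-1.63), Neurog2 (-1.58), Ppp1r1b (-1.46) and Ebf1 (-1.44). At day 28 each of these effects lay below 0 but did not pass. Effects lower at day 12 that faded were those of Fgb (1.86), Apom (1.60), Gcnt4 (1.51), Plac8 (1.5) and Ttr (1.5). Late rises were those of Gkn1 (1.47), S100g (1.45), Aqp8 (1.33), Aifm3 (1.29) and Nepn (1.17), and late falls those of Mybpc1 (-1.92), Tnnt3 (-1.33), Tbx1 (-1.18), Emilin2 (-1.17) and Fndc3c1 (-1.15). Of these 30 genes, 10 passed the difference with the DMSO pairs summed and 23 passed in all 8 fits that left out a library.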

How the results depend on the processing

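The count of differences was 1700 to 2125 with DESeq2, other scalings, other filters and log2(FPKM + 1), against 1800. With log2(FPKM + 0.1) it was 1339. It was 2829 with the 8 libraries alone, 831 with 10 nM alone and 172 with the DMSO pairs summed, and 1056 to 1639 when each library was left out. Reversals (208) were 114 with log2(FPKM + 0.1), 414 with the 8 libraries alone, 76 with 10 nM alone, 1 with the DMSO pairs summed and 57 to 200 when each library was left out. Faded effects (1153) were 541 with 10 nM alone, 142 with the DMSO pairs summed and 600 to 967 when each library was left out. Late effects (245) were 399 with log2(FPKM + 1), 144 with log2(FPKM + 0.1), 475 with the 8 libraries alone, 115 with 10 nM alone, 2 with the DMSO pairs summed and 53 to 320 when each library was left out. Summing leaves 1 DMSO library a day and 6 residual degrees of freedom. The cause of the change in counts was not tested for any setting. The test between doses called 1 gene, 2 with library size alone and 12 of 1362 genes with an adjusted p in DESeq2. Over 11787 genes, DMSO library 2 minus library 1 at day 28 correlated at 0.0121 with the same deviation at day 12. For TBBPA, 100 nM minus 10 nM, the correlation between the days was -0.118. Pairing of DMSO with TBBPA libraries within a day was not tested. With the replicate block 1882 genes passed, with 133 reversals, 1142 faded and 202 late effects. All settings used libraries of the main fit, so a kept sign in them is no separate support. Of 131 named genes that passed, 126 did so with DESeq2, 107 with log2(FPKM + 0.1), 92 with 10 nM alone, 110 with 100 nM alone, 37 with the DMSO pairs summed and 102 to 114 when each library was left out, and none changed sign in these settings.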

Other observations

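Of 21 genes of the IGF axis and imprinting, 1 passed the difference as positive and 3 as negative (5.54% and 5.44% of all genes). Their median difference was -0.11. The positive one, Peg10, an imprinted gene of placenta, had 1550 and 1630 CPM with TBBPA and 1160 and 1140 CPM with DMSO at day 28, and 1170 and 1120 CPM with TBBPA and 1850 and 2010 CPM with DMSO at day 12. It reversed by 1.22 ± 0.10 (SE; adjusted p = 1.26e-07 by edgeR), while the imprinted genes Ndn (-0.64 ± 0.10) and Mest (-0.52 ± 0.12) were among the negative ones. Cited1, listed among estrogen-responsive genes, had 101 and 119 CPM with TBBPA and 58.9 and 62.8 CPM with DMSO at day 28, and 51.5 and 48.3 CPM with TBBPA and 66.5 and 63.5 CPM with DMSO at day 12, a difference of 1.24 ± 0.11 (adjusted p = 6.29e-07). Of 26 glycolysis and hypoxia genes, 5 passed the difference as positive and 0 as negative (5.54% and 5.44% of all genes). The glucose transporters Slc2a3 (0.89 ± 0.10) and Slc2a1 (0.62 ± 0.10) and the hexokinase Hk2 (0.45 ± 0.10) reversed. Of 19 thyroid hormone genes, 3 passed as positive and 1 as negative, against the same 5.54% and 5.44% of all genes. Me1, malic enzyme, reversed by 0.82 ± 0.10 (adjusted p = 1.72e-05).

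Of 18 aryl hydrocarbon receptor and P450 genes, 6 fell at day 12 (9.19% of all genes), of which 3 faded and 1 reversed. The difference passed as positive for 4 of the 18 and as negative for 0, against 5.54% and 5.44% of all genes. Of 19 NRF2 targets, 6 fell at day 12, of which 4 faded, and 1 rise faded. The effect on Cyp2s1, a cytochrome P450, differed by 1.13 ± 0.19, that on Hmox1, heme oxygenase, by 0.65 ± 0.13 and that on Gclm, of glutathione synthesis, by 0.57 ± 0.12. Of 22 integrated stress response genes, 4 passed, all rises at day 12 that faded, and the median difference was -0.08. Stc2, a secreted glycoprotein, differed by -0.94 ± 0.25 and passed in 4 of the 8 fits that left out a library. Some genes passed the difference and neither day, such as Runx2, a bone factor (-0.94 ± 0.28), Twist1, a mesenchymal factor (-0.61 ± 0.18), and Msx2, a homeobox factor (0.71 ± 0.22). These passed in 2, 2 and 0 of the 8 edgeR fits that left out a library, and none with the DMSO pairs summed.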
